A study of Homo sapiens with 9 samples.

Results

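The levels of 10 genes whose proteins build or regulate the neuronal microtubule cytoskeleton were compared in a human embryonic stem cell differentiation series. The 10 genes are the tubulin gene TUBB3, the doublecortin genes DCX and DCLK1, the collapsin response mediator genes DPYSL2, DPYSL3 and DPYSL5, the stathmin genes STMN1 and STMN2, and the microtubule-associated protein genes MAP1B and MAP2. They were chosen by name, and each of the 10 was found among the 21417 gene symbols of the deposited expression table. Each is represented by its RefSeq transcript with the highest mean over all libraries. All 10 passed the minimum mean of 0.5 RPKM, which 14473 genes passed. RPKM gives reads per kilobase of transcript and per M (mega) reads of a library.

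Total RNA depleted of ribosomal RNA was sequenced from 9 libraries of H9, an established human embryonic stem cell line, with 3 libraries in each of 3 groups. Neuroectoderm libraries were labelled day 5 and came from H9 cells given NOGGIN at 200 nM, a BMP antagonist, with SB431542 at 10 μM, an inhibitor of activin and Nodal receptors. Mesendoderm libraries were also labelled day 5 and came from H9 cells given BMP4 at 5 ng/ml in mTeSR1 medium. Undifferentiated cells (hESC, day 0) were kept in mTeSR1 on Matrigel. All groups derive from 1 cell line without a stated genetic change, and whether the 3 libraries of a group are separate cultures is not stated in the labels. The p-values therefore measure the spread between these libraries, which may be technical.

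Microtubules are hollow polymers of alpha- and beta-tubulin that carry cargo and shape the long processes of neurons. MAP2, MAP1B, DCX and DCLK1 bind along the polymer and stabilise it, stathmins bind free tubulin dimers and promote disassembly, and collapsin response mediator proteins bind tubulin and relay guidance signals to the growth cone. TUBB3, DCX, STMN2 and MAP2 are widely used as markers of young neurons, whereas STMN1 is abundant in many dividing cells.

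Of 16 tested neural progenitor markers, 10 were higher and 1 was lower in neuroectoderm than in hESC. Of all tested genes, 21.9% were higher and 22.3% lower in this comparison at a limma adjusted p under 0.05. The summed level of all 20 progenitor markers on the list was 796 to 1055 RPKM in neuroectoderm libraries, against 318 to 380.0 RPKM in hESC libraries. All 13 tested mesendoderm markers were higher in mesendoderm than in hESC, where 17.0% of all tested genes were higher and 18.1% lower. Sums over 15 genes of that list were 295 to 347 RPKM in mesendoderm and 26.5 to 29.5 RPKM in hESC. All 11 tested trophoblast and amnion markers were also higher in mesendoderm, with sums over 14 genes of 236 to 381 RPKM in mesendoderm against 10.7 to 13.7 RPKM in hESC, and the part of such cells in the mesendoderm results was not tested. Of 18 tested neuron markers, 5 were higher (3 with small RNA genes left out) and 11 lower in neuroectoderm than in hESC, and the summed level of all 29 on the list was 52.5 to 63.2 RPKM in neuroectoderm, against 79.4 to 94.0 RPKM in hESC. The low values of the table imply denominators of 36.5 to 69.6 M reads per library, so that 3 reads on a transcript of 1 kb correspond to 0.0431 to 0.0823 RPKM, a floor that reflects counting error alone. Neuroectoderm 1, mesendoderm 1 and hESC 2 stood apart: their deviations from the group means ran against transcript GC content across genes (Spearman −0.563, −0.290 and −0.619), against 0.196 to 0.587 in the other 6 libraries. Deviations from a group mean cancel out within the group, so the opposite sign in the other 6 is not an independent contrast. In bulk RNA, fewer cells expressing a gene and less RNA of that gene per cell cannot be told apart.

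In neuroectoderm against hESC, 6 of the 10 genes passed limma's test at an adjusted p under 0.05. MAP2, DPYSL5, MAP1B and STMN2 were higher, and DCLK1 and TUBB3 were lower. Over all tested genes 44.2% passed, 21.9% as higher and 22.3% as lower. In mesendoderm against hESC, DCLK1 was higher and DPYSL3, DPYSL5, DPYSL2, DCX and STMN2 were lower, against 35.1% of all tested genes that passed, 17.0% as higher and 18.1% as lower. In neuroectoderm against mesendoderm, 7 of the 10 genes were higher and DCLK1 alone was lower, with 48.1% of all tested genes passing, 24.0% as higher and 24.1% as lower. The median difference of the 10 genes in log2(RPKM + 1) was 0.00 in neuroectoderm against hESC. It was −0.85 in mesendoderm against hESC, and 1.06 between neuroectoderm and mesendoderm, where the medians of all tested genes were −0.02, −0.02 and −0.01. The first of these 3 medians changed sign with the scaling, at −0.10 when small RNA genes were left out and 0.13 under quantile normalization. With a pseudocount of 0.1 in place of 1, the median between neuroectoderm and mesendoderm was 1.74. Without neuroectoderm 1, mesendoderm 1 and hESC 2, the counts were 4 higher and 3 lower in neuroectoderm against hESC, 1 higher and 8 lower in mesendoderm against hESC, and 7 higher and 1 lower in neuroectoderm against mesendoderm. Of all tested genes 58.1%, 47.1% and 60.3% then passed in these 3 comparisons. The comparisons share libraries, so their counts are not independent of each other.

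**Figure D1:**
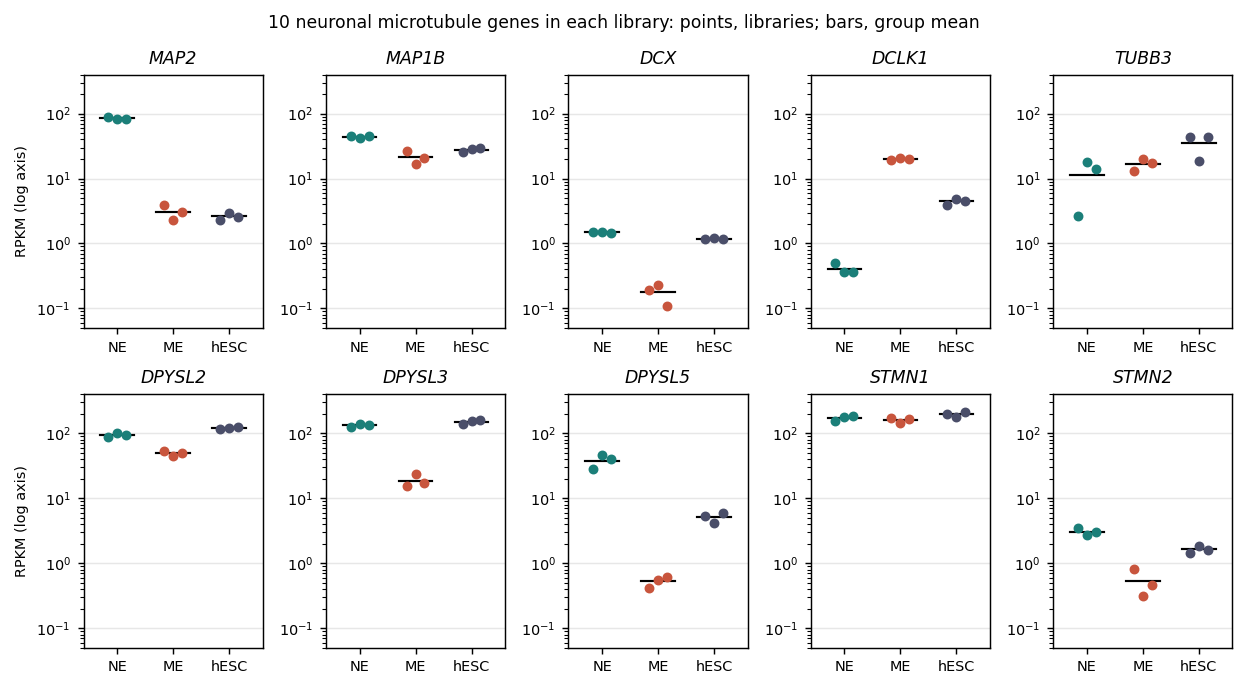
RPKM on a log axis of each of the 10 genes in neuroectoderm (NE), mesendoderm (ME) and undifferentiated cells (hESC), with a point per library and a bar at the mean of 3 libraries. MAP2 stood at 82.9 to 89.0 RPKM in NE and under 4 RPKM elsewhere, and DCLK1 at 19.6 to 20.7 RPKM in ME and under 1 RPKM in NE.

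The summed level of the 10 genes was 588 ± 40.7 RPKM in neuroectoderm, 291 ± 16.7 RPKM in mesendoderm and 548 ± 38.3 RPKM in hESC (SD, n = 3 each). STMN1, the tubulin-sequestering protein of dividing cells, was the most abundant of the 10 in each group. In neuroectoderm it was followed by DPYSL3, DPYSL2, MAP2, MAP1B, DPYSL5, TUBB3, STMN2, DCX and DCLK1, and the neighbours in this order whose libraries overlapped were MAP1B with DPYSL5 and TUBB3 with STMN2. In mesendoderm the order after STMN1 was DPYSL2, MAP1B, DCLK1, DPYSL3, TUBB3, MAP2, STMN2, DPYSL5 and DCX. There the libraries of MAP1B, DCLK1, DPYSL3 and TUBB3 overlapped, as did those of STMN2 and DPYSL5. In hESC the order after STMN1 was DPYSL3, DPYSL2, TUBB3, MAP1B, DPYSL5, DCLK1, MAP2, STMN2 and DCX. TUBB3 overlapped MAP1B in hESC, and DPYSL5 overlapped DCLK1.

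MAP2, which encodes the main microtubule-associated protein of dendrites, had the largest rise of the 10 in neuroectoderm against hESC. It stood at 88.96, 82.94 and 83.54 RPKM in the neuroectoderm libraries, 3.90, 2.30 and 3.03 RPKM in the mesendoderm libraries, and 2.32, 2.95 and 2.55 RPKM in the hESC libraries. Every neuroectoderm library lay far above every other library, and mesendoderm overlapped hESC. The mean was 85.1 ± 3.32 RPKM in neuroectoderm and 2.61 ± 0.319 RPKM in hESC (SD, n = 3 each), a ratio of 32.7 and a difference of 4.58 ± 0.15 in log2(RPKM + 1) (SE, limma adjusted p = 9.88e-08). The difference from mesendoderm was 4.42 ± 0.15 (limma adjusted p = 5.90e-08), and that of mesendoderm from hESC was 0.16 ± 0.15 and missed the threshold (limma adjusted p = 0.433). At 85.1 RPKM MAP2 lay above 95.5% of tested genes in neuroectoderm, against 28.2% in hESC. The 2 tested genes with the most similar profile over the 9 libraries were ILDR2 and ZBTB16, with root mean square differences of 0.185 and 0.207 in centred log2(RPKM + 1). ILDR2 averaged 26.7 ± 0.454 RPKM in neuroectoderm, 0.297 ± 0.0802 RPKM in mesendoderm and 0.317 ± 0.0802 RPKM in hESC (SD, n = 3 each).

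The table lists 4 MAP2 transcripts, which share most of their exons and therefore their reads. The long transcript NM_002374 holds the large central exon of the high molecular weight protein, which the short transcript NM_031845 lacks. Both followed the same group order, and the long transcript was at 68.44, 63.30 and 64.81 RPKM in neuroectoderm, 2.62, 1.59 and 1.95 RPKM in mesendoderm, and 1.71, 2.25 and 1.90 RPKM in hESC. The ratio of long to short was 0.769 ± 0.00630 in neuroectoderm, 0.669 ± 0.0240 in mesendoderm and 0.748 ± 0.0131 in hESC (SD, n = 3 each). The mesendoderm ratios of 0.644 to 0.691 lay below those of both other groups, and neuroectoderm and hESC ratios nearly met. This ratio was noticed after the values had been seen and was not tested.

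MAP1B encodes a microtubule-associated protein of growing axons that appears early in neuronal development. It was at 45.76, 41.71 and 44.65 RPKM in neuroectoderm, 27.01, 16.59 and 20.42 RPKM in mesendoderm, and 25.78, 28.35 and 29.42 RPKM in hESC. All neuroectoderm libraries lay above all others, and mesendoderm 1 lay within the range of hESC. Neuroectoderm exceeded hESC by 0.64 ± 0.17 (SE, limma adjusted p = 0.0122) and mesendoderm by 1.04 ± 0.17 (limma adjusted p = 8.37e-04) in log2(RPKM + 1). With small RNA genes left out and the rest rescaled, the difference from hESC was 0.52 and no longer passed (limma adjusted p = 0.0845). Mesendoderm differed from hESC by −0.39 ± 0.17 (limma adjusted p = 0.0992), which became −0.57 without mesendoderm 1 (limma adjusted p = 0.0193). The most similar profiles were those of CBLB and TMEM80, at root mean square differences of 0.0647 and 0.106.

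DPYSL5 encodes collapsin response mediator protein 5, which interacts with tubulin and the other family members in developing neurons. On the log2(RPKM + 1) scale it differed more between the 2 derived lineages than any other of the 10 genes. Its level was 28.42, 46.33 and 40.05 RPKM in neuroectoderm, 0.41, 0.55 and 0.62 RPKM in mesendoderm, and 5.38, 4.22 and 6 RPKM in hESC. The 3 groups did not overlap at any point. Neuroectoderm averaged 38.3 ± 9.09 RPKM and hESC 5.20 ± 0.904 RPKM (SD, n = 3 each), a difference of 2.65 ± 0.18 in log2(RPKM + 1) (SE, limma adjusted p = 5.63e-06). Mesendoderm averaged 0.527 ± 0.107 RPKM (SD, n = 3), which was 2.01 lower than hESC on the same scale (−2.01 ± 0.18, limma adjusted p = 4.24e-05) and −3.08 with a pseudocount of 0.1. Neuroectoderm exceeded mesendoderm by 4.66 ± 0.18 (limma adjusted p = 1.37e-07), and the ratio of the means was 72.7. The most similar profile was that of COL2A1, a fibrillar collagen gene, at 54.4 ± 18.0 RPKM in neuroectoderm, 1.66 ± 0.362 RPKM in mesendoderm and 6.74 ± 1.41 RPKM in hESC (SD, n = 3 each).

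MAP2 and DPYSL5 both lie on chromosome 2, and the windows at one annotated start of each are shown because they were the 2 genes of the 10 with the largest rise in neuroectoderm. The sequences are RefSeq's for GRCh38.p14, from 250 bases before to 50 bases after the start, whereas the submitters' processing notes name hg19. Capitals mark every match on either strand to 4 motifs, which may overlap. They are the GC box GGGCGG, the CCAAT box, the core ATTGT that SOX proteins bind and the E-box form CAGNTG. Of 35116 windows of this length, 45.0% hold GGGCGG, 34.6% CCAAT, 27.4% ATTGT and 49.9% CAGNTG. The DPYSL5 window, chr2:26847882-26848181 on the plus strand, is 79.3% G and C, more than 96.7% of all windows, and holds 1 GGGCGG and 1 CCAAT match. The MAP2 window, chr2:209579357-209579656 on the plus strand, is 52.3% G and C, more than 36.2% of windows, and holds 1 ATTGT match. Other annotated starts of both genes are not shown, and the matches differ between starts. The MAP2 window chr2:209579082-209579381, for example, is 40.0% G and C and holds 1 CCAAT, 1 ATTGT and 1 CAGNTG match. All these matches describe letters and were not tested as binding sites.
DPYSL5: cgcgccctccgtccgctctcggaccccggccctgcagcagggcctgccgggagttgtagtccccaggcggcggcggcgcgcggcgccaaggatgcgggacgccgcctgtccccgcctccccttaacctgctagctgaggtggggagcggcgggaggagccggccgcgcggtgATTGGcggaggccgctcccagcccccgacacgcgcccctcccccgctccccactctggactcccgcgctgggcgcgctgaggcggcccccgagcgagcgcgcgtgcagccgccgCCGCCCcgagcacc
MAP2: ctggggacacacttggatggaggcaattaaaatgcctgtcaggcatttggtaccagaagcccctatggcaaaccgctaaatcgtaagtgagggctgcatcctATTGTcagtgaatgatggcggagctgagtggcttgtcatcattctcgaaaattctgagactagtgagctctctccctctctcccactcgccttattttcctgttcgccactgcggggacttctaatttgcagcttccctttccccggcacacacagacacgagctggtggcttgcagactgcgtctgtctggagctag

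DPYSL3 and DPYSL2 encode 2 further collapsin response mediator proteins, which regulate growth cone advance and axon formation. DPYSL3 was at 123.92, 139.72 and 134.96 RPKM in neuroectoderm, 15.46, 23.75 and 17.12 RPKM in mesendoderm, and 139.22, 153.19 and 159.83 RPKM in hESC. Only mesendoderm stood apart, and neuroectoderm 2 was just above the lowest hESC library. Mesendoderm fell below hESC in log2(RPKM + 1) (−2.96 ± 0.17, limma adjusted p = 2.83e-06), at 0.125 of its mean. Neuroectoderm differed from hESC by −0.18 ± 0.17 (limma adjusted p = 0.425), which took the other sign, 0.02, under quantile normalization. The closest profile was that of NOVA2, a neuronal splicing regulator gene, at 6.65 ± 2.09 RPKM in neuroectoderm, 0.247 ± 0.150 RPKM in mesendoderm and 6.49 ± 0.794 RPKM in hESC (SD, n = 3 each).

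DPYSL2 moved in the same direction in mesendoderm with a smaller fall. It was at 89.15, 102.98 and 94.95 RPKM in neuroectoderm, 53.07, 45.32 and 49.60 RPKM in mesendoderm, and 115.94, 120.13 and 125.59 RPKM in hESC. The groups did not overlap, with neuroectoderm between the other two. The difference in log2(RPKM + 1) was −1.27 ± 0.13 in mesendoderm against hESC (limma adjusted p = 7.42e-05) and 0.94 ± 0.13 in neuroectoderm against mesendoderm (limma adjusted p = 2.85e-04). Neuroectoderm differed from hESC by −0.33 ± 0.13, just outside the threshold (limma adjusted p = 0.0607), and passed it with libraries centred on their medians (limma adjusted p = 0.0271). Its closest profiles were those of ANKRD35 and MYO10, an unconventional myosin gene of filopodia, at root mean square differences of 0.0735 and 0.0946.

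Summed over the 5 genes of the collapsin response mediator family, the level was 303 ± 36.8 RPKM in neuroectoderm, 94.0 ± 2.23 RPKM in mesendoderm and 328 ± 20.9 RPKM in hESC (SD, n = 3 each). The make-up of that sum differed between groups. DPYSL5 held 10.8% to 13.8% of it in neuroectoderm libraries, 0.445% to 0.664% in mesendoderm libraries and 1.33% to 1.71% in hESC libraries. DPYSL3 held 44.1% in neuroectoderm, 19.9% in mesendoderm and 46.0% in hESC, and DPYSL2 held 31.7%, 52.6% and 36.8% in the same groups. CRMP1, a further family member, was at 24.1 ± 9.75 RPKM in neuroectoderm, 17.9 ± 1.09 RPKM in mesendoderm and 41.1 ± 9.10 RPKM in hESC (SD, n = 3 each), and its fall in mesendoderm passed (−1.13 ± 0.30, limma adjusted p = 0.0171). DPYSL4 differed in neuroectoderm against mesendoderm (0.63 ± 0.22, limma adjusted p = 0.0420) and missed the threshold in both comparisons with hESC.

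**Figure D2:**
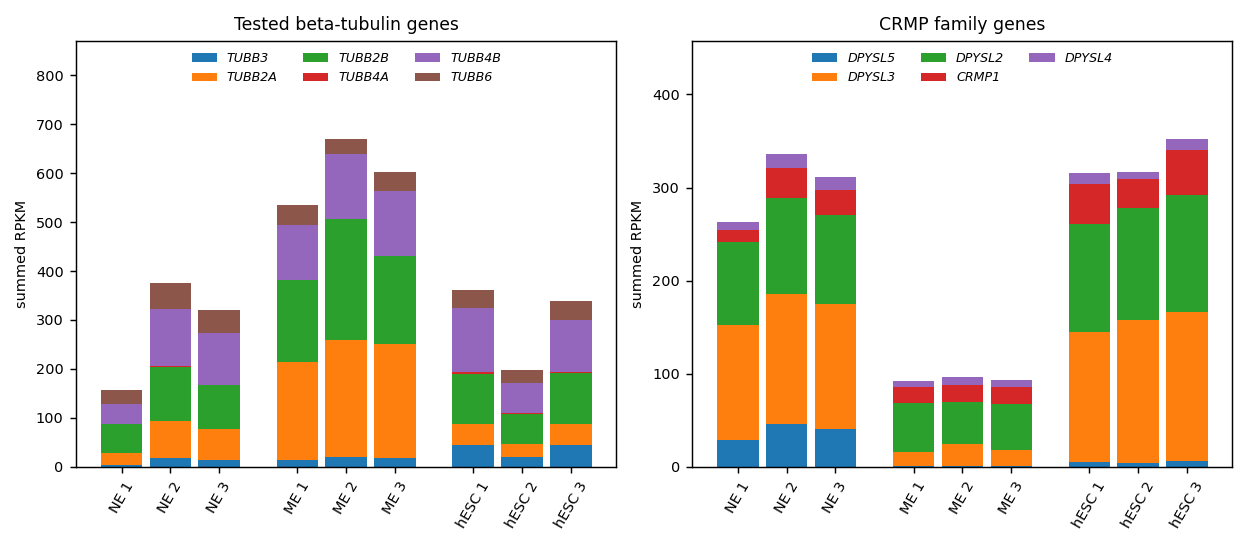
Summed RPKM of the tested beta-tubulin genes (left) and of the collapsin response mediator (CRMP) family (right) in each library of neuroectoderm (NE), mesendoderm (ME) and hESC, with a colour per gene. The CRMP sum was 92.1 to 96.4 RPKM in ME and 315 to 352 RPKM in hESC, and DPYSL5 forms a visible layer in NE.

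STMN2 encodes a membrane-bound stathmin of growing axons. It was at 3.48, 2.72 and 3.01 RPKM in neuroectoderm, 0.82, 0.31 and 0.46 RPKM in mesendoderm, and 1.44, 1.84 and 1.63 RPKM in hESC. The 3 groups did not overlap, although all levels were low. Neuroectoderm exceeded hESC by 0.62 ± 0.14 (SE, limma adjusted p = 0.00533) in log2(RPKM + 1), with a ratio of means of 1.88. Mesendoderm fell by 0.80 on the same scale (−0.80 ± 0.14, limma adjusted p = 0.00191), at 0.324 of the hESC mean. These differences are understated at such levels: with a pseudocount of 0.1 they reached 0.87 and −1.54, and neuroectoderm exceeded mesendoderm by 2.41. The closest profiles were those of DOPEY1 and NTRK3, a neurotrophin receptor gene, at root mean square differences of 0.129 and 0.136.

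STMN1, the most abundant of the 10, passed in none of the 3 comparisons by limma, also at an unadjusted p under 0.05. It was at 157.22, 182.10 and 186.21 RPKM in neuroectoderm, 173.45, 144.22 and 164.03 RPKM in mesendoderm, and 200.42, 178.82 and 215.42 RPKM in hESC. Every mesendoderm library lay below every hESC library, and the other pairs of groups overlapped. The difference in log2(RPKM + 1) was −0.18 ± 0.16 in neuroectoderm against hESC (limma adjusted p = 0.397), −0.30 ± 0.16 in mesendoderm against hESC (limma adjusted p = 0.171) and 0.13 ± 0.16 in neuroectoderm against mesendoderm (limma adjusted p = 0.533). The mesendoderm difference passed at −0.43 without neuroectoderm 1, mesendoderm 1 and hESC 2 (limma adjusted p = 0.0207). A related stathmin gene, STMN3, was the family member with the largest change in neuroectoderm against hESC. It averaged 0.963 ± 0.470 RPKM in neuroectoderm, 5.96 ± 0.835 RPKM in mesendoderm and 22.1 ± 5.58 RPKM in hESC (SD, n = 3 each), a difference of −3.55 ± 0.23 in neuroectoderm and −1.70 ± 0.23 in mesendoderm from hESC (limma adjusted p = 3.98e-06 and 4.81e-04).

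DCX, the doublecortin gene of migrating young neurons, was low in all libraries. It was at 1.52, 1.51 and 1.43 RPKM in neuroectoderm, 0.19, 0.23 and 0.11 RPKM in mesendoderm, and 1.17, 1.23 and 1.18 RPKM in hESC. The groups did not overlap, and mesendoderm was lowest. Mesendoderm was at 0.148 of the hESC mean, a difference of −0.90 ± 0.08 in log2(RPKM + 1) (SE, limma adjusted p = 3.62e-05) that grew to −2.25 with a pseudocount of 0.1. Neuroectoderm exceeded mesendoderm by 1.08 ± 0.08 (limma adjusted p = 5.89e-06), or 2.54 with a pseudocount of 0.1. Its excess over hESC, 1.25 times in the means, was 0.18 ± 0.08 and missed the threshold (limma adjusted p = 0.0946), although it passed under quantile normalization (limma adjusted p = 0.0377). The closest profiles were those of RNF150 and ZFYVE9, at root mean square differences of 0.0602 and 0.0650.

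DCLK1 encodes doublecortin-like kinase 1, which joins microtubule-binding doublecortin domains to a kinase domain, and it was the only one of the 10 genes with its highest mean in mesendoderm. It was at 0.50, 0.36 and 0.37 RPKM in neuroectoderm, 19.60, 20.66 and 20.20 RPKM in mesendoderm, and 3.85, 4.89 and 4.56 RPKM in hESC. The groups were widely separated, with mesendoderm highest and neuroectoderm lowest. Neuroectoderm averaged 0.410 ± 0.0781 RPKM and hESC 4.43 ± 0.531 RPKM (SD, n = 3 each), a difference of −1.94 ± 0.10 in log2(RPKM + 1) (SE, limma adjusted p = 9.25e-07) that grew to −3.16 with a pseudocount of 0.1. Mesendoderm averaged 20.2 ± 0.532 RPKM, 4.55 times the hESC mean and 1.97 ± 0.10 higher on the log2 scale (limma adjusted p = 1.27e-06). Between the derived lineages the difference was −3.91 ± 0.10 in neuroectoderm against mesendoderm (limma adjusted p = 1.31e-08). The closest profiles were those of MPP1, a membrane scaffold gene, and KDR, which encodes a VEGF receptor of early mesoderm, at root mean square differences of 0.127 and 0.210. KDR averaged 3.61 ± 0.438 RPKM in neuroectoderm, 83.4 ± 2.89 RPKM in mesendoderm and 22.2 ± 1.27 RPKM in hESC (SD, n = 3 each). The related gene DCLK2 had the opposite order of means, at 3.46 ± 0.416 RPKM in neuroectoderm, 0.06 ± 0.01 RPKM in mesendoderm and 0.183 ± 0.0306 RPKM in hESC (SD, n = 3 each). DCLK2 in neuroectoderm exceeded hESC by 1.91 ± 0.09 (limma adjusted p = 6.35e-07). Its difference of mesendoderm from hESC, −0.16 ± 0.09, rests on very low values and missed the threshold (limma adjusted p = 0.209).

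DCLK1 has an upstream start, whose transcript NM_004734 includes the doublecortin-domain exons, and an internal start, whose transcripts NM_001195415 and NM_001195416 keep the kinase part. The shared exons give both kinds of transcript the same reads, so only their ratio carries information on the 5′ exons. The upstream transcript was at 0.53, 0.55 and 0.55 RPKM in neuroectoderm, 16.97, 17.90 and 17.44 RPKM in mesendoderm, and 3.79, 4.68 and 4.46 RPKM in hESC. Its ratio to NM_001195416 was 1.06, 1.53 and 1.49 in neuroectoderm, 0.866, 0.866 and 0.863 in mesendoderm, and 0.984, 0.957 and 0.978 in hESC. Every neuroectoderm ratio lay above every hESC ratio, every mesendoderm ratio lay below, and neuroectoderm 1, a library that stood apart, was nearest to hESC. The ratio of the fourth transcript, NM_001195430, to NM_001195416 was 0.62, 0.806 and 0.811 in neuroectoderm, 0.365, 0.337 and 0.366 in mesendoderm, and 0.353, 0.450 and 0.333 in hESC, so that mesendoderm and hESC overlapped there. Over the 4 transcripts, neuroectoderm against hESC ranged between −1.95 and −1.05 in log2(mean RPKM + 1). The pattern of the ratios was noticed after the values had been seen and was not tested, and the neuroectoderm ratios rest on values under 1 RPKM.

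**Figure D3:**
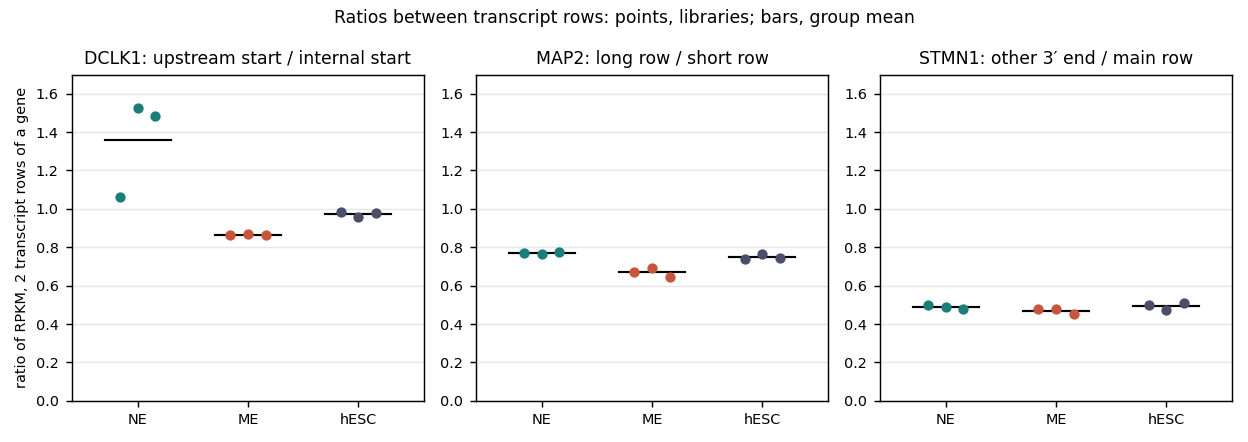
Ratio of RPKM between 2 transcripts of DCLK1, MAP2 and STMN1 in each library of neuroectoderm (NE), mesendoderm (ME) and hESC, with a point per library and a bar at the mean. DCLK1 ratios were 0.863 to 0.866 in ME and 1.06 to 1.53 in NE, MAP2 ratios were lowest in ME, and STMN1 ratios of 0.451 to 0.508 overlapped between groups.

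Windows at 2 of the annotated DCLK1 starts on chromosome 13 are shown because the ratio sets an upstream start against the internal one. Both come from RefSeq for GRCh38.p14 and lie on the minus strand, with capitals marking the same 4 motifs. The window at the upstream start shown, chr13:36131333-36131632, is 69.0% G and C, more than 77.2% of windows, and holds 2 GGGCGG matches and 1 CAGNTG match. Another upstream window, chr13:36131890-36132189, is not shown. It is 54.3% G and C, more than 39.5% of windows, and holds 1 CCAAT match and no GGGCGG match. The window at the internal start, chr13:35855618-35855917, is 50.7% G and C, more than 32.0% of windows, and holds 1 ATTGT and 2 CAGNTG matches.
DCLK1 upstream start: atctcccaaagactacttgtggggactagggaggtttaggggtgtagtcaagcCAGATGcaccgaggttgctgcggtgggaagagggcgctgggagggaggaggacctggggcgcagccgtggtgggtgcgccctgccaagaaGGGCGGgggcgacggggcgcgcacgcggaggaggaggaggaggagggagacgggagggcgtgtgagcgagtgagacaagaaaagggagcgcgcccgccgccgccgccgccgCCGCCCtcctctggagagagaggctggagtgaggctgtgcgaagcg
DCLK1 internal start: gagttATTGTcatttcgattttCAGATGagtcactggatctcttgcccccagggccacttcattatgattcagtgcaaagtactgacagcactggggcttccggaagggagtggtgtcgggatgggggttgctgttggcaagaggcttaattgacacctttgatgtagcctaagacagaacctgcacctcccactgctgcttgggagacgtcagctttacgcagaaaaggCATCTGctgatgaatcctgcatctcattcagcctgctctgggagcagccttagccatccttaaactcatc

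TUBB3 encodes the class III beta-tubulin that is used to stain neurons, and its differences had the largest SE of the 10 genes. It was at 2.64, 18.06 and 13.83 RPKM in neuroectoderm, 13, 19.68 and 17.55 RPKM in mesendoderm, and 44.43, 18.82 and 43.63 RPKM in hESC. Neuroectoderm did not overlap hESC, but its highest library was within 1 RPKM of the lowest hESC library, and mesendoderm overlapped both. The mean was 11.5 ± 7.97 RPKM in neuroectoderm, 16.7 ± 3.41 RPKM in mesendoderm and 35.6 ± 14.6 RPKM in hESC (SD, n = 3 each). Neuroectoderm was lower than hESC by 1.76 in log2(RPKM + 1) (−1.76 ± 0.58, limma adjusted p = 0.0363). The differences of mesendoderm from hESC, −0.97 ± 0.58, and of neuroectoderm from mesendoderm, −0.79 ± 0.58, did not pass (limma adjusted p = 0.237 and 0.289). The closest profiles were those of APOE and MAD2L2, at root mean square differences of 0.254 and 0.302.

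The lowest TUBB3 library of each group was one of the 3 that stood apart by GC content. The TUBB3 transcript is 62.6% G and C, above 90.4% of tested genes with a known content. With the trend on GC content smoothed out of each library, an adjustment chosen after seeing the data, TUBB3 in neuroectoderm against hESC was −1.63 ± 0.42 (limma adjusted p = 0.0102). Without neuroectoderm 1, mesendoderm 1 and hESC 2, TUBB3 was lower than in hESC in neuroectoderm (−1.42, limma adjusted p = 1.30e-04) and in mesendoderm (−1.20, limma adjusted p = 4.36e-04). These 3 libraries were picked from these same data and hold the lowest TUBB3 value of each group. Leaving them out narrows the spread of TUBB3 within groups and keeps fewer than 3 libraries in each. Both p-values are therefore no independent support for the call. The call in neuroectoderm was lost without hESC 1 (−1.56, limma adjusted p = 0.114) or hESC 3 (−1.57, limma adjusted p = 0.112), and also without mesendoderm 1, mesendoderm 2 or mesendoderm 3, where the difference stayed at −1.76 and the limma adjusted p was 0.0504 to 0.0550. Without neuroectoderm 1 the differences were −1.03 from hESC, which still passed (limma adjusted p = 0.0375), and −0.06 from mesendoderm. Mesendoderm against hESC passed without neuroectoderm 1 (−0.97, limma adjusted p = 0.0335).

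As a share of the summed RPKM of the 8 beta-tubulin genes analysed, TUBB3 held 1.67%, 4.81% and 4.33% in neuroectoderm, 2.43%, 2.94% and 2.91% in mesendoderm, and 12.3%, 9.50% and 12.9% in hESC. Every neuroectoderm and mesendoderm library lay below every hESC library by this measure. The difference from hESC was −7.95 percentage points in neuroectoderm and −8.79 in mesendoderm, each at an exact two-sided permutation p of 0.10, the smallest that 3 libraries against 3 can give. In mesendoderm the sum itself was higher, at 603 ± 67.6 RPKM against 299.6 ± 88.7 RPKM in hESC (SD, n = 3 each). TUBB2A was at 201.07, 240.29 and 233.65 RPKM in mesendoderm, against 42.79, 27.12 and 44.38 RPKM in hESC, and rose by 2.56 ± 0.38 (limma adjusted p = 8.67e-04). TUBB2B rose by 1.15 ± 0.29 (limma adjusted p = 0.0133). TUBB2A and TUBB2B are near-identical copies, and how reads that match several places were counted is not given in the sources used here, so the split between beta-tubulin genes is uncertain. TUBB was not analysed here.

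**Figure D4:**
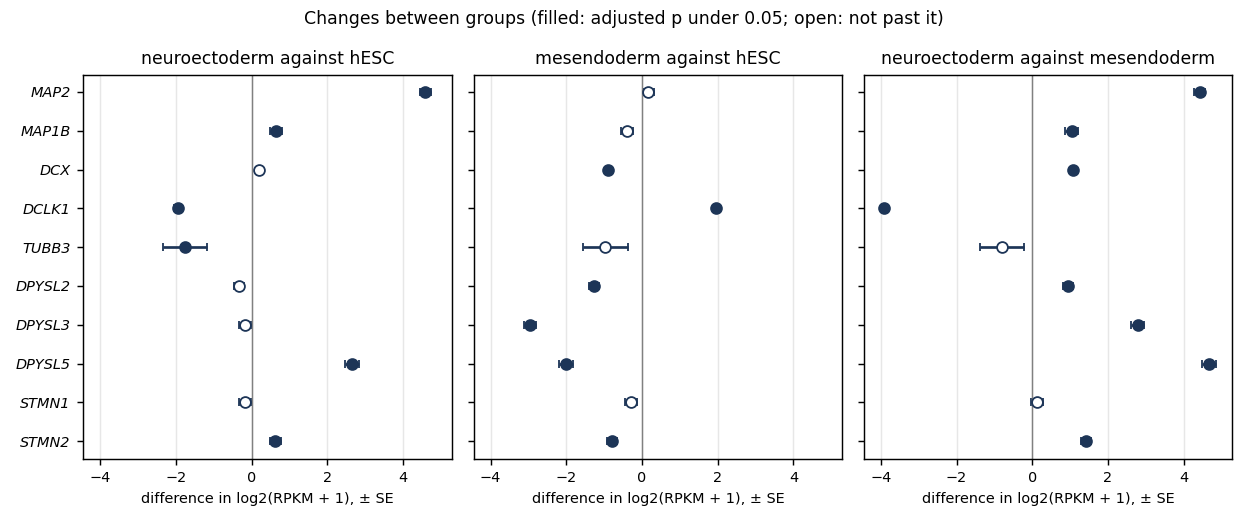
Difference in log2(RPKM + 1) ± SE of the 10 genes in neuroectoderm against hESC, mesendoderm against hESC and neuroectoderm against mesendoderm, with filled points where limma's adjusted p was under 0.05. MAP2 and DPYSL5 lie to the right in both panels that test neuroectoderm, DCLK1 lies on the left there and on the right in the panel of mesendoderm against hESC, and TUBB3 has the widest error bars.

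Of the 6 tested beta-tubulin genes, TUBB3 included, 2 were lower in neuroectoderm than in hESC, namely TUBB3 and TUBB4A, a beta-tubulin of the brain. Without the 3 libraries that stood apart, 2 were lower and 2 higher, when 58.1% of all tested genes passed. In mesendoderm against hESC 2 were higher and 1 lower, and in neuroectoderm against mesendoderm 1 was higher and 2 lower. The medians of the 6 in the 3 comparisons were −0.15, 0.26 and −0.72, and the first was 0.07 under quantile normalization. Of the 6, 33.3%, 50% and 50% passed in these comparisons, beside 44.2%, 35.1% and 48.1% of all tested genes. Of 8 tested alpha-, gamma-, delta- and epsilon-tubulin genes, 2 were higher and 2 lower in neuroectoderm than in hESC, and 2 higher and 3 lower in neuroectoderm than in mesendoderm. In mesendoderm against hESC 2 were lower and 0 higher by limma, and at an unadjusted p under 0.05 there were 3 lower and 0 higher. TUBA1A, the main alpha-tubulin gene of developing neurons, averaged 160 ± 44.4 RPKM in neuroectoderm, 40.4 ± 5.52 RPKM in mesendoderm and 76.2 ± 16.4 RPKM in hESC (SD, n = 3 each). It rose in neuroectoderm by 1.04 ± 0.24 and fell in mesendoderm by 0.89 (−0.89 ± 0.24) relative to hESC (limma adjusted p = 0.00735 and 0.0202). TUBA4A averaged 0.143 ± 0.110 RPKM in neuroectoderm, 5.92 ± 2.85 RPKM in mesendoderm and 10.1 ± 3.17 RPKM in hESC (SD, n = 3 each), and fell in neuroectoderm (−3.24 ± 0.31, limma adjusted p = 4.64e-05).

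Of 7 tested relatives of the 10 genes, 2 rose and 2 fell in neuroectoderm against hESC. DCLK2 and MAP1A, a close relative of MAP1B, were the 2 that rose, and STMN3 and MAP4, a microtubule-associated protein of non-neuronal cells, were the 2 that fell. MAP1A was at 9.22 ± 1.78 RPKM in neuroectoderm, 1.45 ± 0.168 RPKM in mesendoderm and 2.01 ± 0.207 RPKM in hESC (SD, n = 3 each), and rose in neuroectoderm by 1.75 ± 0.14 (limma adjusted p = 1.28e-05). In mesendoderm against hESC limma called 2 falls, STMN3 and CRMP1, and 0 rises, with 3 falls and 0 rises at an unadjusted p under 0.05. In neuroectoderm against mesendoderm 3 were higher and 2 lower. The medians of the 7 in the 3 comparisons were −0.33, −0.42 and 0.32. Of the 7, 57.1%, 28.6% and 71.4% passed in these comparisons, beside 44.2%, 35.1% and 48.1% of all tested genes. Over 6 scalings and sets of libraries, the main one included, the falls in mesendoderm numbered 2 to 5. MAPT, the gene of the axonal protein tau, did not reach the minimum, at 0.22, 0.50 and 0.41 RPKM in neuroectoderm, 0.44, 0.21 and 0.43 RPKM in mesendoderm, and 0.24, 0.22 and 0.14 RPKM in hESC.

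Of 32 tested further microtubule-associated and plus-end genes, 11 were higher and 4 lower in neuroectoderm than in hESC, 4 higher and 14 lower in mesendoderm than in hESC, and 18 higher and 3 lower in neuroectoderm than in mesendoderm. Their median differences were 0.27, −0.18 and 0.39. In these 3 comparisons 46.9%, 56.25% and 65.6% of the 32 passed, beside 44.2%, 35.1% and 48.1% of all tested genes. The counts moved with the scaling and the set of libraries: over the 6 tried, 7 to 16 were higher and 4 to 5 lower in neuroectoderm against hESC, and 1 to 5 higher and 13 to 14 lower in mesendoderm against hESC. MAP6, which keeps microtubules stable in the cold, averaged 7.46 ± 1.87 RPKM in neuroectoderm, 0.0167 ± 0.0115 RPKM in mesendoderm and 0.653 ± 0.0451 RPKM in hESC (SD, n = 3 each), and rose in neuroectoderm against hESC by 2.33 ± 0.15 (limma adjusted p = 4.13e-06). NAV1, a plus-end neuron navigator gene, rose in neuroectoderm by 1.73 ± 0.10, whereas its relative NAV2 rose in mesendoderm by 1.49 ± 0.12 (limma adjusted p = 1.56e-06 and 2.23e-05). MAP7, which recruits kinesin-1 to microtubules, fell in neuroectoderm to 0.780 ± 0.0436 RPKM, against 19.0 ± 0.687 RPKM in hESC (SD, n = 3 each; −3.49 ± 0.08, limma adjusted p = 1.91e-08).

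Of 28 tested genes that sever microtubules or modify tubulin, 13 were higher and 5 lower in neuroectoderm than in hESC, 3 higher and 4 lower in mesendoderm than in hESC, and 14 higher and 2 lower in neuroectoderm than in mesendoderm, with medians of 0.26, −0.06 and 0.41. Of the 28, 64.3%, 25% and 57.1% passed in these comparisons, beside 44.2%, 35.1% and 48.1% of all tested genes. The 4 that were lower in mesendoderm than in hESC became up to 7 over the same 6 settings. The tubulin carboxypeptidase genes VASH1 and VASH2 changed in opposite directions in neuroectoderm against hESC, by 1.36 ± 0.13 and −2.20 ± 0.16 (limma adjusted p = 3.82e-05 and 7.62e-06). Of 23 tested kinases and partners of these proteins, 6 were higher and 2 lower in neuroectoderm than in hESC, 3 higher and 3 lower in mesendoderm than in hESC, and 7 higher and 2 lower in neuroectoderm than in mesendoderm, with medians of 0.13, 0.01 and 0.13. In the main fit the shares that passed, 34.8%, 26.1% and 39.1%, were below those of all tested genes in each comparison. Without the 3 libraries that stood apart, 10 were higher and 5 lower in neuroectoderm than in hESC. Against mesendoderm, 10 were then higher and 4 lower in neuroectoderm. Of all tested genes 58.1% and 60.3% passed in these 2 comparisons, and the shares of the 23 were no longer below them. Over the 6 settings, 3 to 10 were higher and 2 to 5 lower in neuroectoderm than in hESC, and the median in mesendoderm against hESC ran between −0.12 and 0.04. MAPK10, a neuronal JNK kinase gene, was at 28.1 ± 3.08 RPKM in neuroectoderm, 1.60 ± 0.499 RPKM in mesendoderm and 0.970 ± 0.0529 RPKM in hESC (SD, n = 3 each), and rose in neuroectoderm by 3.88 ± 0.15 (limma adjusted p = 2.03e-07). MARK1, whose kinase detaches microtubule-associated proteins, rose in mesendoderm by 1.21 ± 0.12 (limma adjusted p = 9.31e-05).

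Of 26 tested motor genes, 5 were higher and 7 lower in neuroectoderm than in hESC, 3 higher and 7 lower in mesendoderm than in hESC, and 7 higher and 4 lower in neuroectoderm than in mesendoderm, with medians of 0.07, −0.04 and 0.08. Of the 26, 46.2%, 38.5% and 42.3% passed in these comparisons, shares near those of all tested genes. Over the 6 settings, 1 to 10 were higher and 7 to 9 lower in neuroectoderm than in hESC, with a median of −0.05 when small RNA genes were left out and 0.18 under quantile normalization. In mesendoderm against hESC 2 to 6 were higher and 7 to 10 lower, and in neuroectoderm against mesendoderm 6 to 11 were higher and 3 to 6 lower. KIF5A, a neuronal kinesin-1 heavy chain gene, was at 6.81 ± 0.135 RPKM in neuroectoderm, 0.823 ± 0.342 RPKM in mesendoderm and 11.5 ± 1.18 RPKM in hESC (SD, n = 3 each). It fell in mesendoderm against hESC by 2.78 (−2.78 ± 0.14, limma adjusted p = 1.20e-06).

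Marker genes of neurons and of neurogenesis stood as follows beside these values. Of 18 tested neuron markers, 4 were higher and 9 lower in mesendoderm than in hESC, and 4 higher and 9 lower in neuroectoderm than in mesendoderm. Counts in mesendoderm against hESC ran from 3 to 5 higher and 9 to 10 lower over the 6 settings. Those in neuroectoderm against mesendoderm ran from 4 to 5 higher and 6 to 9 lower. Mesendoderm libraries had a summed level of 73.4 to 85.8 RPKM over all 29. Within that sum GAD1 averaged 22.1 ± 3.24 RPKM in mesendoderm, against 0.157 ± 0.0603 RPKM in hESC and 0.823 ± 0.313 RPKM in neuroectoderm (SD, n = 3 each). CHGA, a secretory granule protein gene, averaged 0.280 ± 0.104 RPKM in neuroectoderm and 25.1 ± 5.57 RPKM in hESC (SD, n = 3 each), whereas NCAM1, a neural cell adhesion gene, averaged 14.6 ± 1.73 RPKM in neuroectoderm and 1.90 ± 0.142 RPKM in hESC (SD, n = 3 each). Of 11 tested neurogenic factors, 7 were higher and 0 lower in neuroectoderm than in hESC by limma (7 and 1 at an unadjusted p under 0.05), 4 higher and 1 lower in mesendoderm than in hESC, and 6 higher and 4 lower in neuroectoderm than in mesendoderm. The largest rises in mesendoderm were those of EOMES and ISL1 (4.72 ± 0.15 and 3.58 ± 0.16, limma adjusted p = 1.12e-07 and 7.07e-07). EOMES is also on the mesendoderm list, and ISL1 on the trophoblast and amnion list. POU4F1, a sensory neuron factor, was at 15.1 ± 1.42 RPKM in neuroectoderm, 0.103 ± 0.00577 RPKM in mesendoderm and 0.05 RPKM in each hESC library (SD, n = 3). Of 11 tested neural crest markers, 7 were higher and 3 lower in neuroectoderm than in hESC, 4 higher and 1 lower in mesendoderm than in hESC, and 4 higher and 3 lower in neuroectoderm than in mesendoderm. PAX3, a dorsal neural tube and crest factor gene, averaged 68.1 ± 17.8 RPKM in neuroectoderm and 0.0633 ± 0.0513 RPKM in hESC (SD, n = 3 each). ERBB3 and ETS1 on the same list went the other way in neuroectoderm against hESC (−2.88 ± 0.09 and −2.13 ± 0.11, limma adjusted p = 9.88e-08 and 1.14e-06). ERBB3 averaged 1.38 ± 0.154 RPKM in neuroectoderm and 16.5 ± 0.860 RPKM in hESC (SD, n = 3 each). Of 10 tested pluripotency markers, 9 were lower in neuroectoderm and 8 lower and 1 higher in mesendoderm, each against hESC, with sums of 316 to 328 RPKM in neuroectoderm, 368 to 495 RPKM in mesendoderm and 891 to 952 RPKM in hESC. Shares that passed follow in the order neuroectoderm to hESC, mesendoderm to hESC, neuroectoderm to mesendoderm. Among all tested genes they were 44.2%, 35.1% and 48.1%. They were 88.9%, 72.2% and 72.2% for neuron markers, and 63.6%, 45.5% and 90.9% for neurogenic factors. For neural crest markers they were 90.9%, 45.5% and 63.6%, and for pluripotency markers 90%, 90% and 100%. The part of cells carrying these markers in the values of the 10 genes was not tested.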

How the data were processed

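The authors deposited RPKM values for 38759 RefSeq transcripts, with 2 decimals. Per the submitters' processing notes, TopHat, TopHat2 2.0.13 and Bowtie2 were used with hg19. Not given in the sources used here were the counter, whether it used strand, how it handled multi-mapping reads and what the RPKM denominator counts. Per the labels' protocols, ribosomal RNA was depleted before libraries were made with an Ion Total RNA-Seq kit. Libraries were grouped by their titles. Each symbol was represented by its transcript with the highest mean, and 14473 genes whose mean reached 0.5 RPKM were analysed as log2(RPKM + 1), a scale that understates changes of low genes. All 9 libraries entered 1 limma 3.58.1 model (R 4.3.3) that had group as its term and let the variance follow the mean. A gene passed at a Benjamini-Hochberg adjusted p under 0.05 over all tested genes. The fit was checked on simulated data. Whole-read steps of the low values, within 0.1 of a read for 94.1% to 97.3% of 188 to 235 values per library, gave the denominators. GC content came from the matching GENCODE transcripts.

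Correlations of deviations between neuroectoderm and mesendoderm libraries of the same number were 0.229 to 0.392, and those of different numbers −0.371 to 0.241, of which neuroectoderm 3 with mesendoderm 2 (0.241) lay above neuroectoderm 3 with its own number (0.229). Each same-number pair exceeded 0.1, but so did neuroectoderm 3 with mesendoderm 2 (0.241) and neuroectoderm 2 with mesendoderm 3 (0.152). These values therefore cannot show that the numbers pair the libraries, and no label ties them. The fit with the number as a block changed no call among the 10 genes between neuroectoderm and mesendoderm. Same-number correlations between either lineage and hESC ran between −0.738 and 0.401, and showed no pairing.

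The 10 genes, the 14 further gene lists and the alternatives were chosen with earlier results of these data known. The further genes named are, per list, up to 3 that passed in neuroectoderm against hESC and up to 2 in each other comparison, taken by size of change, any beta-tubulin or close relative, and the 2 genes whose centred profile lay nearest to each of the 10. Of 284 list entries 281 were matched. Of each list the tables give counts, medians and sums, with no set test. Some genes sit on 2 lists (TFAP2A, ISL1 and EOMES). The alternatives were other pseudocounts, filters, transcripts, scalings and sets of libraries, a replicate block and, added after seeing the data, a smooth on GC content.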

Additional observations from a re-analysis of the deposited data

How the results depend on the processing

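The 30 changes of the 10 genes were recomputed under 21 other settings, which gave 627 values, since DCX fell below a minimum mean of 1 RPKM. Of these, 607 kept their direction and their side of the threshold, 8 fell short of it, 10 newly passed it and 2 changed sign. MAP2, DPYSL5, DCLK1 and STMN2 kept every call that they passed under all 21 settings, and DPYSL3, DPYSL2 and DCX kept theirs in both comparisons with mesendoderm under all settings in which they were tested. The 2 that changed sign were DPYSL3 (0.016) and STMN1 (0.0099) in neuroectoderm against hESC under quantile normalization, neither of which passed before or after, and the cause was not tested. Of the 8 lost calls, 7 were TUBB3 in neuroectoderm against hESC and 1 was MAP1B in that comparison with small RNA genes left out (0.52, limma adjusted p = 0.0845). TUBB3 lost its call without either of 2 hESC libraries or any one mesendoderm library and with only the 6 libraries of these groups (limma adjusted p = 0.0795). DPYSL2 in neuroectoderm against hESC passed with the GC trend smoothed out (limma adjusted p = 0.0183) and without the 3 libraries that stood apart (limma adjusted p = 0.0453). MAP1B in mesendoderm against hESC passed without those 3 libraries (limma adjusted p = 0.00861), as did TUBB3 with only the 6 libraries of the groups compared (limma adjusted p = 0.0485).

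With the replicate number as a block, 8 of the 10 genes passed between neuroectoderm and mesendoderm, 5 in neuroectoderm against hESC and 6 in mesendoderm against hESC, beside 43.2%, 39% and 29.2% of all tested genes in that fit. The one lost call was TUBB3 in neuroectoderm against hESC (−1.76, limma adjusted p = 0.0507), and no label ties the numbers to a shared culture.

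The counts of all genes that passed were 5562 to 8733 over the settings between neuroectoderm and mesendoderm, 5055 to 8416 in neuroectoderm against hESC and 3640 to 6811 in mesendoderm against hESC. Leaving out small RNA genes shifted the median of all genes by −0.10 in neuroectoderm and −0.11 in mesendoderm against hESC, and the genes that passed were then 2060 higher and 3525 lower in neuroectoderm, against 3165 and 3228 before, and 1714 higher and 2781 lower in mesendoderm, against 2457 and 2620 before. Levels under 1 RPKM, such as those of DCX and DPYSL5 in mesendoderm and DCLK1 in neuroectoderm, give changes whose size depends on the pseudocount.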
